A study of Mus musculus with 28 samples.

Results

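Low-dose alcohol was compared with no alcohol in sperm of wild type (WT) mice by small RNA sequencing. The comparison holds 8 of the 28 libraries of the series: 4 WT control libraries with no alcohol exposure and 4 WT libraries at a low dose of alcohol. They were chosen by genotype and treatment as the labels give them, not by any measured value. The amount, route and length of the exposure, the age and strain of the mice and the number of mice behind a library are not given in the sources used here. Nothing says that the libraries came from separate animals, so p-values measure the spread between these libraries, which may be partly technical. Total RNA was isolated in Trizol, and libraries were built with a Qiaseq kit for small RNA. The remaining WT libraries, 2 at a medium and 2 at a high dose, entered the fits to share the estimate of the spread. They thereby also entered the filter for low counts, the scaling and the rule for missing values, and are not compared here.

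Mature sperm transcribe little, and the RNA they carry is a mixture of what remains from spermatogenesis and what is gained in the epididymis. Fragments of tRNA, piRNAs, miRNAs and pieces of mRNA and of repeats make up most of it. miRNAs pair with mRNAs through their seed, the bases 2 to 8 from the 5′ end, so miRNAs that share a seed are expected to share targets. piRNAs are germ line RNAs cut from long cluster transcripts and silence transposable elements (TEs). Small RNAs of sperm are studied as a possible carrier of paternal exposures to the offspring.

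The miRNAs with the lowest p in either direction are shown first, because the miRNA results turn on them, with the seed in capitals. Of 338 miRNA entries tested, 229 matched a mature mouse sequence of RefSeq (build GRCm38.p6), and positions are those of RefSeq, since the build behind the counts is not given in the sources used here. Those at a higher level at low dose were these.
miR-451a: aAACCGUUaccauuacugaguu
miR-144-5p: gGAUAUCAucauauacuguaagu
miR-25-3p: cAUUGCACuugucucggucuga
miR-106b-3p: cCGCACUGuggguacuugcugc
miR-296-5p: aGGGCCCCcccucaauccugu
miR-184-3p: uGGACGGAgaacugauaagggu

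Those at a lower level at low dose were these.
miR-101a-3p: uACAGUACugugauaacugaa
miR-190a-5p: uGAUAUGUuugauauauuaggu
miR-205-5p: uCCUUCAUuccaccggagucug
miR-29c-3p: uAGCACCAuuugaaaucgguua
miR-10b-5p: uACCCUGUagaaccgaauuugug
miR-99a-5p: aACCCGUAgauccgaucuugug

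To show shared seeds, members of their seed groups and the most abundant miRNAs are given next.
miR-92a-3p: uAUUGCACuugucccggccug
miR-29b-3p: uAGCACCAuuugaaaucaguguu
miR-10a-5p: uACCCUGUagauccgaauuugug
miR-16-5p: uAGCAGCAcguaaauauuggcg
let-7a-5p: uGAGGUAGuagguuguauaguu
let-7c-5p: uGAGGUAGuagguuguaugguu

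miR-25-3p and miR-92a-3p share a seed, as do miR-29c-3p and miR-29b-3p, miR-10b-5p and miR-10a-5p, and let-7a-5p and let-7c-5p. miR-451a (chr11:78073186-78073207) and miR-144-5p (chr11:78073010-78073032) are neighbours on chromosome 11 and come from 1 primary transcript of red blood cell precursors. miR-25-3p (chr5:138165332-138165353) and miR-106b-3p (chr5:138165746-138165767) are neighbours on chromosome 5 in an intron of Mcm7. miR-101a-3p lies at chr4:101346957-101346977, and miR-10b-5p lies at chr2:74726074-74726096 in the Hoxd cluster.

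The 8 libraries held from 1993933 (control 3) to 11119711 (control 1) counts. Control 1 stood apart: structural RNA, which is nearly all tRNA, took 75.8% of its counts against 22.5% to 31.1% in the other 7 libraries, so results are also given without it. Some abundant miRNAs are listed at 0 in single libraries, and such a 0, where at least 50 reads were expected, is treated here as a missing value in an alternative. There were 91 such gaps in 43 miRNAs, 48 in controls and 43 at low dose. In the alternative a miRNA was refitted without the libraries where it has a gap, and 7 miRNAs with fewer than 2 libraries left in a group got no value. The labelled cell type was checked on exon counts: the 10 sperm and spermatid genes, which include the protamines, summed to 243 to 528 CPM (counts per 1000000 counts of all classes) in controls and 449 to 669 CPM at low dose. Spermatocyte, hepatocyte and Sertoli cell genes summed to at most 8.79, 4.01 and 1.85 CPM. Epididymis genes summed to 149 to 628 CPM, mostly from Crisp1, while Defb20, Lcn8, Spink13 and Teddm2 had at most 6 counts in a group. Fewer cells of a type and less RNA per cell cannot be told apart in these bulk samples.

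Over the 8 classes of RNA in the table, 0 class shares passed the test between low dose and control (exact two-sided permutation tests, Benjamini-Hochberg over 8 classes). miRNAs took 4.26, 16.0, 11.4 and 13.5% in controls 1 to 4 and 21.1, 13.6, 15.9 and 13.1% in low dose libraries 1 to 4 of all counts. The low dose mean was 15.9% ± 3.65 (SD, n = 4) and the control mean 11.3% ± 5.07 (SD, n = 4), with exact p = 0.257. miRNA hairpins, the precursors of miRNAs, took 0.0227, 0.1004, 0.0814 and 0.0996% in controls 1 to 4 and 0.139, 0.102, 0.138 and 0.102% in low dose libraries 1 to 4. All 4 low dose libraries were above all 4 controls, by a small margin over controls 2 and 4. The exact p of 0.0286 is the smallest that 4 against 4 allow, and its adjusted p was 0.229. The hairpin of mir-451a alone held 160, 321, 40 and 723 counts in controls 1 to 4 and 3677, 2814, 3718 and 1619 in low dose libraries 1 to 4. The class share without it was not tested. The median log2 fold change of the 54 hairpins tested was 0.01, so the difference in share is not one of hairpins in general.

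piRNA clusters took 9.95, 34.8, 32.8 and 37.9% in controls 1 to 4 and 28.3, 35.2, 30.5 and 31.5% in low dose libraries 1 to 4. Without control 1 the control range of 32.8% to 37.9% overlapped that of low dose, 28.3% to 35.2%. Structural RNA took 75.8, 24.0, 28.7 and 22.5% in controls 1 to 4 and 27.9, 27.1, 30.05 and 31.1% in low dose libraries 1 to 4. With control 1 set aside, low dose had a mean of 29.0% ± 1.86 (SD, n = 4) against 25.1% ± 3.26 (SD, n = 3), and the direction turned.

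Exons took 2.85, 7.39, 8.44 and 8.04% in controls 1 to 4 and 6.54, 6.75, 7.21 and 7.24% in low dose libraries 1 to 4. Without control 1, every low dose library was below the 3 other controls, with an exact p of 0.0571, the smallest that 4 against 3 allow, and an adjusted p of 0.152. Introns took 3.23, 6.18, 7.03 and 6.37% in controls 1 to 4 and 6.24, 6.20, 6.32 and 6.69% in low dose libraries 1 to 4, and the ranges overlapped with and without control 1. TEs in sense took 1.79, 5.12, 5.14 and 4.96% in controls 1 to 4 and 4.504, 4.73, 4.42 and 4.56% in low dose libraries 1 to 4. Here too all 4 low dose libraries were below controls 2 to 4 once control 1 was set aside, with the same exact p of 0.0571. TEs in antisense took 2.12, 6.28, 6.34 and 6.65% in controls 1 to 4 and 5.27, 6.38, 5.51 and 5.68% in low dose libraries 1 to 4, and low dose 2 lay among controls 2 to 4. With structural RNA left out of the total, control 1 was within the range of the other controls for miRNAs, at 17.6% against 16.0% to 21.1%. For introns it was not, at 13.3% against 8.14% to 9.86%.

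**Figure D1:**
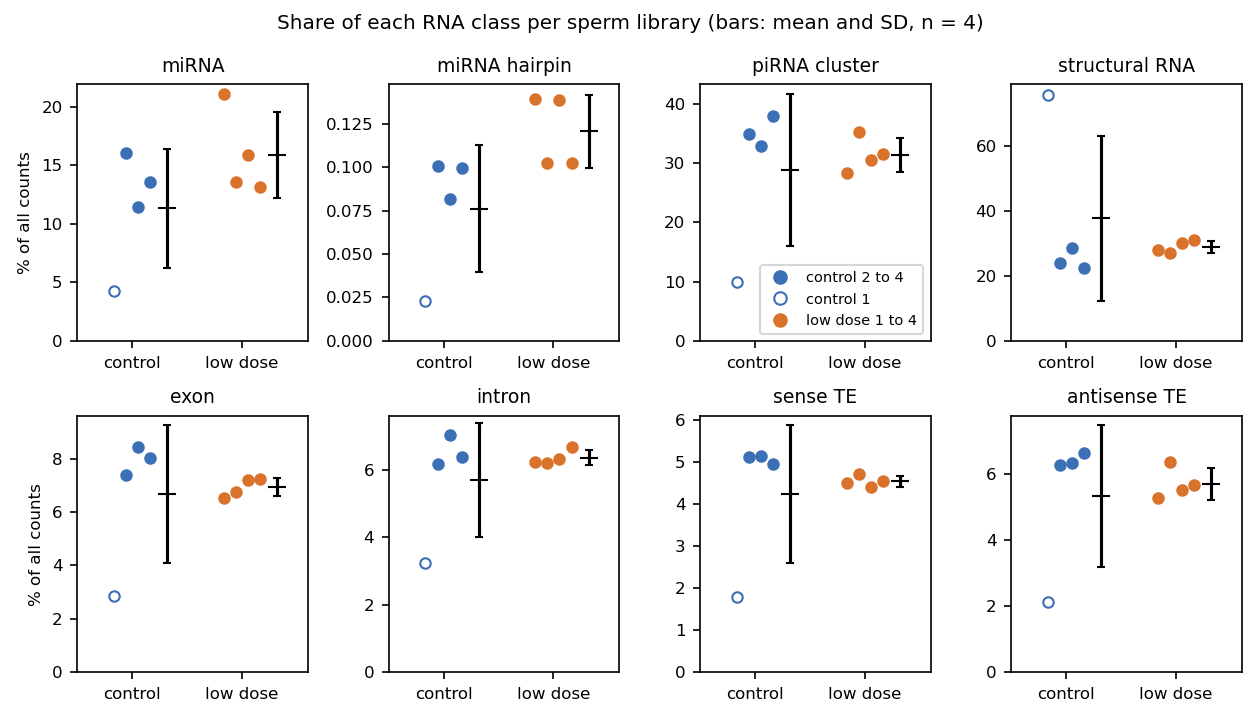
Percent of all counts in each of the 8 classes (y axis, linear) in the 4 control (blue) and 4 low dose (orange) libraries; the open blue circle is control 1 and the bars are the mean and SD of 4. Control 1 is at 75.8% in structural RNA and is the lowest control in the other 7 classes.

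Among miRNA entries, 0 of 338 (0%) passed the edgeR quasi-likelihood test at an adjusted p under 0.05, and the lowest adjusted p was 0.248. DESeq2 called 15 higher and 9 lower, 24 in all, and the 15 include miR-200c-3p, whose values are gaps. At an unadjusted p under 0.05, 16 (4.73%) were higher and 25 (7.4%) lower. The 16 include miR-200c-3p and miR-322-5p, each listed at 0 in all 4 controls. In 26 miRNAs (7.69%) all low dose libraries were above all controls, and in 13 (3.85%) all were below. The median log2 fold change of all 338 was -0.13, and -0.11 without control 1. miRNA levels are given as CPM of the TMM-scaled miRNA counts, and fold changes as low dose over control on the log2 scale.

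The miRNAs of red blood cells showed the largest higher values among those with the lowest p. miR-451a, which matures without Dicer and is abundant in red blood cells, was at 312, 131, 155 and 372 CPM in controls 1 to 4 and 1993, 1975, 3323 and 1578 CPM in low dose libraries 1 to 4. Every low dose library was above every control, by a log2 fold change of 3.19 (SE 0.80), with an edgeR adjusted p of 0.248 (DESeq2 5.05e-04). The entry mir-451a, named as the precursor but listed among the miRNAs, was at 494, 279, 184 and 506 CPM in controls 1 to 4 and 3687, 3515, 4579.8 and 3438 CPM in low dose libraries 1 to 4, a log2 difference of 3.38 (SE 0.79). miR-144-5p, its neighbour, was at 9.24, 4.41, 20.9 and 45.9 CPM in controls 1 to 4 and 125, 96.5, 187 and 159.8 CPM in low dose libraries 1 to 4. The groups did not overlap, and the log2 fold change was 2.79 (SE 0.88) with an adjusted p of 0.359.

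miR-486a-5p and miR-486b-5p, near-identical copies that reads may not separate, are also known from red blood cells and muscle. miR-486a-5p was at 0, 70.5, 54.4 and 121 CPM in controls 1 to 4 and 963, 908, 909 and 1797 CPM in low dose libraries 1 to 4. The 0 in control 1 is a gap, since 278 reads were expected, and without that library the log2 fold change went from 4.20 to 3.79. miR-486b-5p had the same gap and a log2 value of 3.33 without it. Its low dose libraries lay at 885 to 1790 CPM and its controls 2 to 4 at 69.6 to 141 CPM. Over the red blood cell list, 5 of 5 tested members were higher and 0 lower, 4 had an unadjusted p under 0.05, and the median log2 value was 3.19 (3.40 without control 1), beside -0.13 over all miRNAs. Of all 338 miRNAs, 16 (4.73%) were higher at such a p.

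The remaining higher miRNAs of this rank differed by less. miR-296-5p, from the imprinted Gnas region, was at 102, 241, 222 and 205 CPM in controls 1 to 4 and 289, 528, 377 and 574 CPM in low dose libraries 1 to 4. Its groups did not overlap, with a log2 fold change of 1.20 (SE 0.40), 1.04 without control 1. miR-25-3p was at 5961, 7759.7, 6163 and 6743 CPM in controls 1 to 4 and 23162, 9712, 12533 and 10372 CPM in low dose libraries 1 to 4, and low dose 1 held the highest value. The log2 difference was 1.07 (SE 0.36) and kept its size without control 1, at 1.08. miR-106b-3p, from the same primary transcript, was at 30.04, 139, 71.1 and 158 CPM in controls 1 to 4 and 322, 182, 223 and 442 CPM in low dose libraries 1 to 4. Every low dose library was above every control, by a log2 fold change of 1.54 (SE 0.53).

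miR-184-3p, known from the corneal epithelium, was at 1483, 1883, 1364 and 1823 CPM in controls 1 to 4 and 2573, 3006, 2601 and 4877 CPM in low dose libraries 1 to 4. The groups did not overlap and low dose 4 was the highest. miR-342-3p, from an intron of Evl, was at 552, 574, 381 and 684 CPM in controls 1 to 4 and 1159, 1315, 678 and 1046 CPM in low dose libraries 1 to 4. Low dose 3 lay just under control 4, so these groups overlapped. Their log2 fold changes were 0.99 (SE 0.38) and 0.94 (SE 0.35), with an edgeR adjusted p of 0.365 for each.

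Of the miRNAs at a lower level, miR-101a-3p had the lowest p of all miRNAs. miR-101 is known to target Ezh2, the methyltransferase of the Polycomb complex. It was at 1255, 806, 849 and 583 CPM in controls 1 to 4 and 106, 139.5, 225 and 118 CPM in low dose libraries 1 to 4. The highest low dose value was less than the lowest control, and the log2 fold change was -2.56 (SE 0.56), with an adjusted p of 0.248 in edgeR and 1.39e-04 in DESeq2. Without control 1 it was -2.30. miR-190a-5p, from an intron of Tln2, was at 30.04, 45.8, 54.4 and 62.7 CPM in controls 1 to 4 and 17.9, 19.8, 22.2 and 15.7 CPM in low dose libraries 1 to 4. Its log2 difference was -1.35 (SE 0.35), and -1.45 without control 1, with an unadjusted edgeR p of 6.59e-04 there.

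Several miRNAs were lower in all low dose libraries, by a size that rested in part on control 1. miR-205-5p, a miRNA of stratified and glandular epithelium, was at 7408, 679.5, 607 and 959 CPM in controls 1 to 4 and 212, 326, 361 and 317 CPM in low dose libraries 1 to 4. Control 1 lay far above the other controls, and the log2 value went from -2.99 to -1.23 without it, with the groups still apart. miR-10b-5p was at 23719.8, 3472, 6916 and 5488 CPM in controls 1 to 4 and 2423, 2905, 3219 and 2089 CPM in low dose libraries 1 to 4. It did not overlap either, and its log2 value went from -1.90 to -0.93. miR-29c-3p, which targets collagen transcripts, was at 1798, 787, 464 and 709.9 CPM in controls 1 to 4 and 228, 165, 326 and 267 CPM in low dose libraries 1 to 4. Its log2 value was -1.93 (SE 0.62), and -1.35 without control 1.

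miR-99a-5p, which is made together with let-7c, was at 2086, 424, 954 and 646 CPM in controls 1 to 4 and 259, 557, 347 and 218 CPM in low dose libraries 1 to 4, and low dose 2 lay above control 2. The entry mir-5121 was at 314, 22.03, 37.7 and 19.7 CPM in controls 1 to 4 and 2.15, 0, 9.39 and 9.99 CPM in low dose libraries 1 to 4. Control 1 lay far above the other controls, and the log2 value was -4.20 with it and -2.23 without it. A count of 0 in low dose 2 allows up to 2.40 CPM at 3 counts. Of low abundance were also miR-10b-3p, the other arm of miR-10b (log2 -1.28 (SE 0.45)), miR-187-3p (log2 -1.94 (SE 0.69)) and the gonadal miR-202-5p (log2 -1.51 (SE 0.53)), each at most 36.0 CPM in every library.

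**Figure D2:**
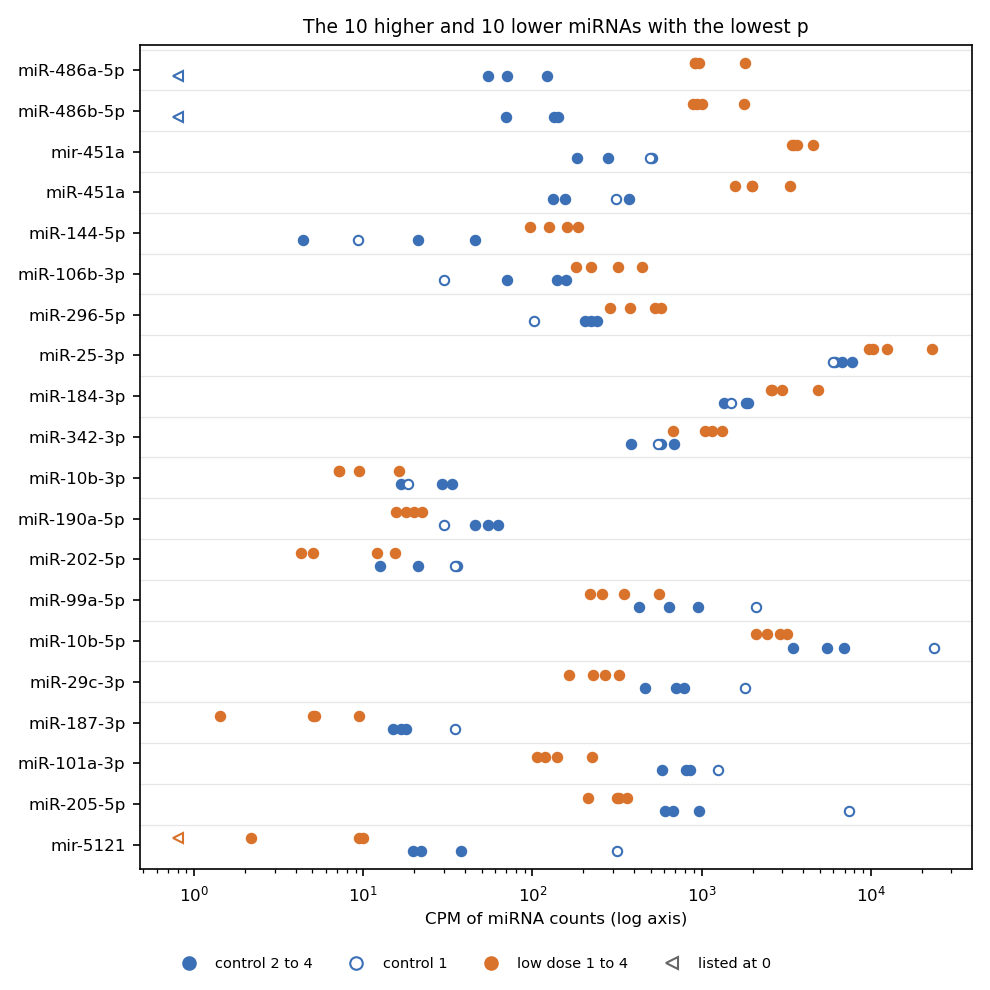
CPM of miRNA counts (x axis, log scale) of the 10 higher and 10 lower miRNAs with the lowest p and a mean of at least 10 CPM; each circle is a library, the open blue circle is control 1 and a triangle at the left edge marks a listed 0. In miR-205-5p, miR-10b-5p and mir-5121 control 1 lies far above controls 2 to 4.

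By seed, the 3 miR-29 members were lower with a median log2 value of -1.24, and -0.77 without control 1, and 2 had an unadjusted p under 0.05. Of all 338 miRNAs, 184 were lower, 25 (7.4%) of them at such a p. The log2 fold change of miR-29b-3p was -1.24 (SE 0.48) (-0.77 without control 1) and that of miR-29a-3p -0.78 (SE 0.37). In the family of miR-99, miR-100, miR-10 and miR-125, 7 of 7 were lower with a median of -1.45. That median was -0.80 without control 1, where 1 of the 7, miR-125b-5p, was higher, at a log2 value of 0.21. miR-10a-5p was at 53798, 6919.7, 17418 and 6281 CPM in controls 1 to 4 and 6042, 6301, 6833 and 5583 CPM in low dose libraries 1 to 4. For miR-10a-5p, low dose 2 and low dose 3 lay above control 4.

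In the epithelial miR-200 family with miR-205, 5 of 6 were lower and the median was -1.05, or -0.59 without control 1. The 1 higher member, miR-200c-3p, was listed at 0 in all 4 controls and in low dose 1 and 4 and at 4507 and 6973 CPM in low dose 2 and 3, so its values are gaps and no fold is given. Muscle and stromal miRNAs were lower in 8 of 8, with a median of -1.02 and of -0.998 without control 1. Of them 1 had an unadjusted p under 0.05, where 7.4% of all miRNAs were lower at such a p. Among leukocyte miRNAs 2 of 5 tested members were higher and 3 lower, and 0 had an unadjusted p under 0.05.

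Of miRNAs of male germ cells, the miR-34 and miR-449 family had 3 of 4 members lower. The log2 fold change of miR-34a-5p was -1.58 (SE 0.68), but -0.64 without control 1, which held 1159.9 CPM against 197 to 305 CPM in the other controls. That of miR-34b-5p was -1.19 (SE 0.52), and -1.45 without control 1. miR-34b-5p was at 3119, 16773, 9862 and 5759 CPM in controls 1 to 4 and 3066, 5326, 4483 and 2690.2 CPM in low dose libraries 1 to 4, and control 1 lay among the low dose libraries. In the X-linked testis cluster, 17 of 29 tested members were higher and 12 lower, with a median of 0.24 (0.12 without control 1 and 0.14 with gaps as missing) and 0 at an unadjusted p under 0.05. Of these, miR-741-3p was at 1728, 2367, 2435 and 2831 CPM in controls 1 to 4 and 3988, 5012, 3683 and 2839 CPM in low dose libraries 1 to 4 and miR-465c-5p had a log2 fold change of 0.58 (SE 0.33). Both had all low dose libraries above all controls, but low dose 4 and control 4 nearly met in miR-741-3p.

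The miR-17-92 and paralogous clusters, growth-promoting miRNAs, had 7 of 9 higher with a median of 0.35, which became 0.07 without control 1. miR-93-5p was at 4309, 15181, 9648 and 11282 CPM in controls 1 to 4 and 21628, 16491, 15282 and 17080.1 CPM in low dose libraries 1 to 4 and the log2 fold change of miR-92a-3p was 1.11 (SE 0.51). The let-7 family, which restrains growth, had 4 of 9 higher and a median of -0.51. Without control 1, 7 of 9 were higher and the median was 0.31, so its direction rests on that library. let-7a-5p was at 142517, 48587, 75659.9 and 40618 CPM in controls 1 to 4 and 91520.5, 80574, 63796 and 76706 CPM in low dose libraries 1 to 4, and the groups overlapped.

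The miR-15 and miR-16 family had 3 members higher and 3 lower, the miR-30 family 3 and 2, the Dlk1-Dio3 cluster 7 and 1 and a list of miRNAs reported after paternal stress 2 and 7. Their medians were 0.19, 0.27, 0.50 and -0.20. Without control 1 they were 0.11, 0.00, 0.32 and -0.24. With gaps as missing the miR-15 and miR-16 median was 0.59 over 5 members, and miR-30a-5p and miR-30d-5p had no value. These lists had 1, 0, 0 and 1 members at an unadjusted p under 0.05, and the 1 of the miR-16 family, miR-322-5p, was listed at 0 in all controls and in low dose 3 and 4. Only 8 of the 56 Dlk1-Dio3 entries had enough counts to test, all at low levels.

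Of the 10 most abundant miRNAs, miR-16-5p alone made up 33.6% ± 3.04 (SD, n = 4) of miRNA counts at low dose. In controls it made up 13.3%, 33.7% and 28.7% in libraries 1 to 3 and is listed at 0 in control 4, where 348137 reads were expected. Without control 4 the fit gave a log2 fold change of 0.59 over 3 controls, with an unadjusted edgeR p of 0.1004, against 0.98 with the 0 kept. let-7c-5p is listed at 0 in control 3 and was at 135859, 17191 and 22383 CPM in controls 1, 2 and 4 and 29639.6, 26811, 27650.1 and 39492 CPM at low dose. miR-191-5p was at 14801, 38780.0, 40008 and 31201 CPM in controls 1 to 4 and 63862, 55878, 52995 and 71390.2 CPM in low dose libraries 1 to 4, and all low dose libraries were above all controls (log2 0.97 (SE 0.40); adjusted p = 0.389). miR-30c-5p did not overlap either, at 31390.2 CPM ± 4292 (SD, n = 4) at low dose and, over controls, 19052 CPM ± 5667 (SD, n = 4). As unscaled shares of miRNA counts these groups overlapped: control 4 held 6.18% miR-191-5p against 5.16% to 6.37% at low dose, and 3.95% miR-30c-5p against 2.32% to 3.14%. The gap of miR-16-5p in control 4 raises the other shares of that library, and shares corrected for it were not computed. Controls 1 to 3 held 1.35%, 4.02% and 4.20% miR-191-5p, below low dose. The ranges of let-7f-5p, miR-125b-5p, miR-34c-5p, miR-19b-3p and miR-669a-3p overlapped.

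With gaps as missing values, 0 of 331 miRNAs passed and the lowest adjusted p was 0.124. In that fit an unadjusted p under 0.05 was found for 17 higher and 28 lower miRNAs. Without control 1 as well the lowest adjusted p was 0.130.

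The other 7 classes were tested together, and 11 of 17937 features (0.0613%) passed the edgeR test at an adjusted p under 0.05. All 11 were higher, 4 of them hemoglobin exons and 7 introns. DESeq2 called 44, with 38 higher, and shared 9 of the 11, while the 2 others had no adjusted p in DESeq2. At an unadjusted p under 0.05, 893 (4.98%) were higher and 445 (2.48%) lower. In 592 (3.3%) all low dose libraries were above all controls, and in 348 (1.94%) all were below. The number of calls was 0 when control 1, control 2, low dose 1, low dose 2 or low dose 4 was left out, 8 without control 3, 4 without control 4 and 2 without low dose 3. In each of these 8 fits all 11 features were higher at low dose. That direction was set by the choice of the 11, in which every low dose library was above every control. Levels of features outside miRNAs are CPM of the TMM-scaled counts of these 7 classes, without a correction for length, and so are not compared between genes. Sums over a gene list are instead CPM of the counts of all classes, without TMM. Control 1, with 75.8% structural RNA, is lowered in those sums against its values for single genes.

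**Figure D3:**
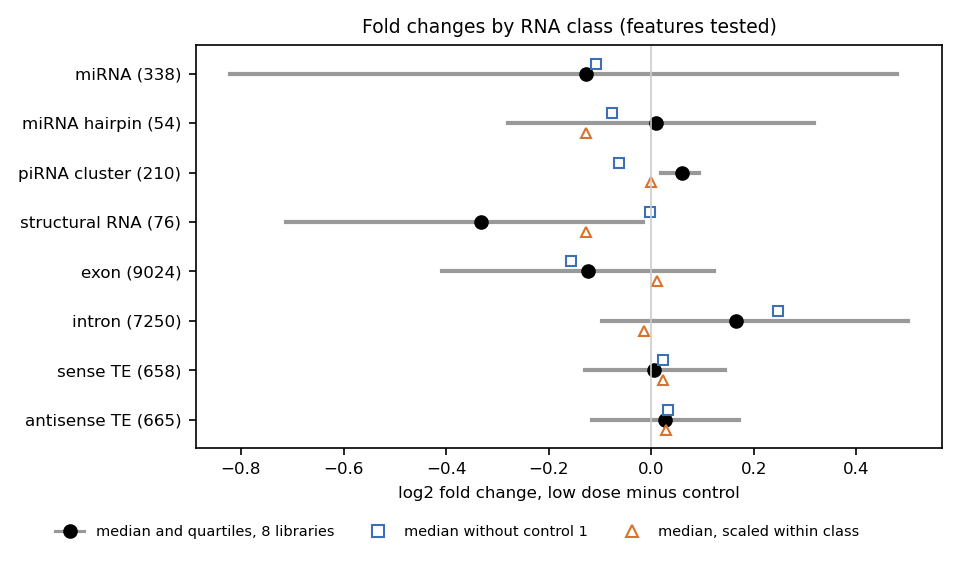
Log2 fold change of low dose over control (x axis) by class, with the number of features tested; black circles are medians and grey lines the quartiles with all 8 libraries, squares are medians without control 1 and triangles medians after scaling within the class (not for miRNAs). The structural RNA median is -0.33 with control 1 and 0.00 without it, and the exon and intron medians lie on opposite sides of 0 until classes are scaled separately.

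Among hemoglobin exons, which came to at most 23.5 CPM each, Hbb-bs was at 1.31, 0.671, 1.35 and 5.04 CPM in controls 1 to 4 and 22.8, 23.5, 16.9 and 12.9 CPM in low dose libraries 1 to 4. This beta globin gene did not overlap between the groups and had a log2 fold change of 3.05 (SE 0.55), with an edgeR adjusted p of 0.0468. Hbb-bt, its neighbour, was at 0.875, 0.671, 1.80 and 2.82 CPM in controls 1 to 4 and 16.4, 16.0, 6.39 and 6.97 CPM in low dose libraries 1 to 4, with a log2 fold change of 2.86 (SE 0.53) and an adjusted p of 0.0495. Hba-a2, an alpha globin gene, was at 0.875, 1.17, 0 and 3.26 CPM in controls 1 to 4 and 16.8, 17.3, 8.86 and 7.84 CPM in low dose libraries 1 to 4. It rose by 2.99 (SE 0.51) on the log2 scale, with an adjusted p of 0.0279. Hba-a1, a copy that reads may not separate from Hba-a2, had a log2 value of 3.06 (SE 0.53).

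The 7 genes of the red blood cell list summed to 1.89, 4.10, 4.01 and 13.5 CPM in controls 1 to 4 and 62.4, 63.8, 39.5 and 34.9 CPM in low dose libraries 1 to 4. Their lowest low dose sum was above the highest control sum, that of control 4. Alas2, of heme synthesis, and Slc4a1, the anion exchanger of the red blood cell membrane, were too low to test, with 5 and 7 counts over all controls and 21 and 13 at low dose. The 8 leukocyte genes summed to 2.70, 10.1, 16.6 and 11.8 CPM in controls 1 to 4 and 16.5, 8.69, 22.3 and 25.2 CPM in low dose libraries 1 to 4, and these groups overlapped. Of them 4 could be tested, all 4 were higher, 3 at an unadjusted p under 0.05 (84 of all 9024 exons, 0.931%), and the median was 1.36 beside -0.12 over all exons. Ptprc and Laptm5 held 1 to 5 counts in each control and 7 to 13 in each low dose library. They may have passed the filter only through the group where they are high, so the direction of the 4 is no test. Only in Ptprc did the groups not overlap. Ptprc, the leukocyte surface protein CD45, was at 0.438, 0.336, 0.4498 and 0.742 CPM in controls 1 to 4 and 1.70, 1.58, 1.74 and 1.39 CPM in low dose libraries 1 to 4. Lyz2, lysozyme of myeloid cells, had a log2 value of 1.38 (SE 0.41), with overlap. Their part in the other differences was not tested.

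Malat1, a long noncoding RNA that stays in the nucleus, came next by p among higher exons with a mean of at least 10 CPM. It was at 112, 198, 379.6 and 236 CPM in controls 1 to 4 and 857, 696, 594 and 509 CPM in low dose libraries 1 to 4. The lowest low dose library was above the highest control, the log2 fold change was 1.52 (SE 0.30) and the adjusted p 0.0668 in edgeR and 0.00249 in DESeq2. Without control 1 the log2 value was 1.29.

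ND6, a subunit of complex I encoded in mitochondrial DNA, was at 11.4, 55.7, 22.5 and 32.2 CPM in controls 1 to 4 and 103, 88.8, 91.4 and 94.3 CPM in low dose libraries 1 to 4. It was named by its p (edgeR adjusted p = 0.150, log2 1.62 (SE 0.37)), and the 12 other mitochondrial protein genes were looked at after its value was seen. All 13 were higher, 12 with no overlap between the groups and 12 with an unadjusted edgeR p under 0.05. Over all exons tested, 0.842% had all low dose libraries above all controls and 0.931% were higher at such a p. Of the 13, 0 passed by edgeR, while DESeq2 called 3, with an adjusted p of 0.0171 for ND6 and 0.0495 for both ND4L and ND5. The median log2 value was 1.63, and 1.30 without control 1. Their exons summed to 75.9, 1502, 754 and 1549 CPM in controls 1 to 4 and 2849, 2277, 2711 and 2591 CPM in low dose libraries 1 to 4. All low dose sums were above all control sums, control 1 was far below the rest, and control 3 lay between it and controls 2 and 4.

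By complex, the subunits of complex I had log2 values of 1.65 (ND1), 1.72 (ND2), 1.36 (ND3), 1.72 (ND4), 1.63 (ND4L) and 1.65 (ND5). CYTB of complex III had a log2 value of 1.64 and was at 17.1, 137, 43.6 and 140.3 CPM in controls 1 to 4 and 299, 255, 261 and 248 CPM in low dose libraries 1 to 4. Of cytochrome oxidase, COX2 had a log2 value of 1.67 and COX3 1.47. COX1 was at 34.1, 429, 245 and 430.2 CPM in controls 1 to 4 and 556, 403, 552 and 456 CPM in low dose libraries 1 to 4, so low dose 2 lay below controls 2 and 4. ATP6 and ATP8, which overlap each other in the mitochondrial genome, had a log2 value of 1.57 and 1.48. Reads of overlapping genes, of the opposite strand and of nuclear copies of mitochondrial DNA cannot be separated here, since the counting is not described in the sources used here.

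**Figure D4:**
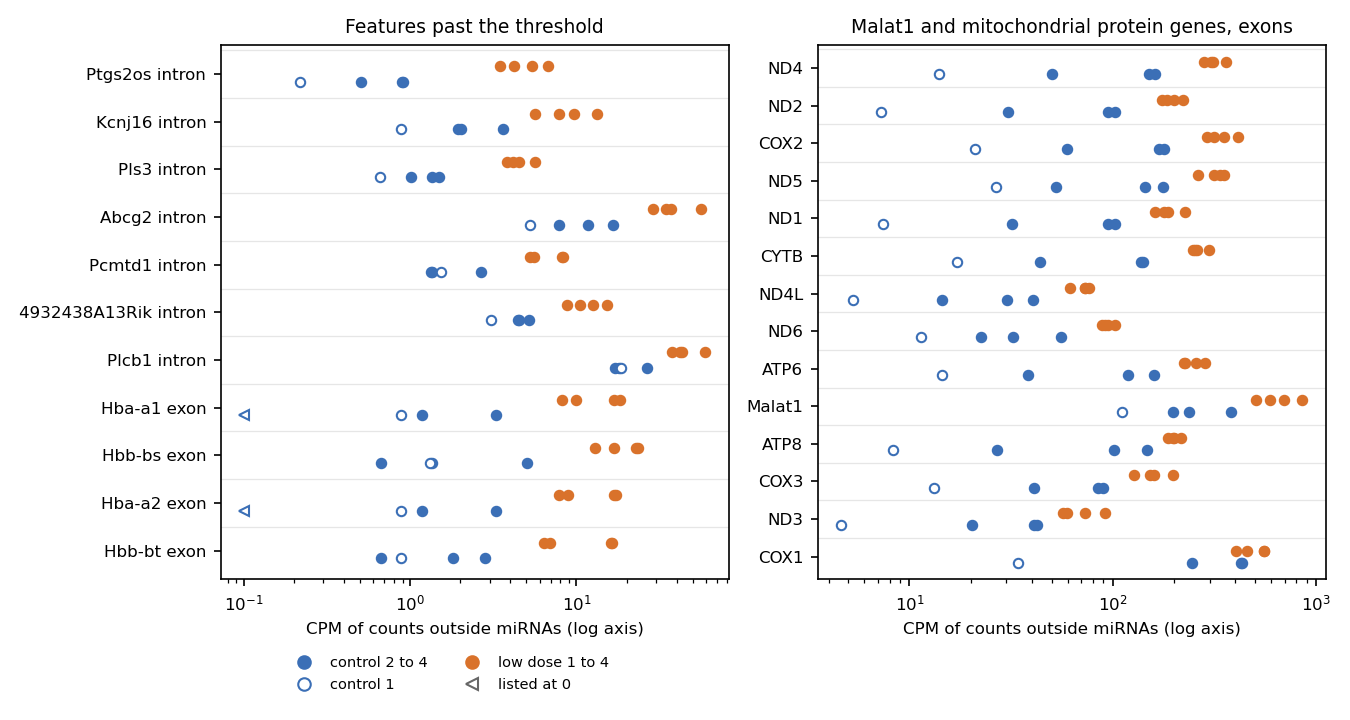
CPM of counts outside miRNAs (x axis, log scale) for the 11 features past the threshold (left) and for exons of Malat1 and the 13 mitochondrial protein genes (right); each circle is a library, the open blue circle is control 1 and a triangle marks a listed 0. In the left panel no low dose library overlaps a control, and in the right panel only COX1 does.

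Over the 9024 exons tested, 84 were higher and 354 lower at an unadjusted p under 0.05, and the median log2 value was -0.12. Scaled within the class, the split was 191 higher and 235 lower and the median 0.01. Of those lower, Vaultrc5, a vault RNA, was at 144, 85.2, 127 and 95.2 CPM in controls 1 to 4 and 41.7, 60.2, 59.4 and 44.8 CPM in low dose libraries 1 to 4. Its groups did not overlap, with a log2 value of -1.13 (SE 0.25) and an adjusted p of 0.129 in edgeR and 0.00830 in DESeq2. Wtap, a part of the RNA methylation complex, was at 92.1, 70.3, 62.5 and 54.7 CPM in controls 1 to 4 and 19.6, 27.3, 45.3 and 27.2 CPM in low dose libraries 1 to 4. Its groups did not overlap either, at a log2 value of -1.23 (SE 0.36). Snord123, a small nucleolar RNA, had a log2 value of -0.87 (SE 0.27) without overlap. The exons with the most counts, Gm5878, Gm10619 and 1700001L05Rik, lay at 1283 to 3034 CPM, and their groups overlapped.

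Genes of the epididymal epithelium were lower in 5 of 7 tested, with a median of -0.64. Over all exons tested, 5669 of 9024 were lower and the median was -0.12, so 5 of 7 is near that share. Cd52, which the epididymis passes on to sperm, was at 93.4, 63.2, 98.5 and 87.7 CPM in controls 1 to 4 and 35.5, 18.002, 57.1 and 33.8 CPM in low dose libraries 1 to 4, and all low dose libraries were below all controls. The log2 value was -1.25 (SE 0.49) with an edgeR adjusted p of 0.495. Clu, clusterin, had a log2 value of -1.24 (SE 0.53). Gpx5, a glutathione peroxidase of the epididymis, was higher, with 13 counts in controls and 58 at low dose, of which 50 were in low dose 1. The summed list was at 230.0, 405, 628 and 559 CPM in controls 1 to 4 and 373, 149, 412 and 222 CPM in low dose libraries 1 to 4. These CPM of all counts overlapped, on a scale where control 1 is lowered by its structural RNA. Sums of TMM-scaled values were not compared.

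Nrf2 targets, the antioxidant and detoxification genes that this transcription factor switches on, were lower in 17 of 19 tested, with a median of -0.63 beside -0.12 over all exons. Of them 6 had an unadjusted p under 0.05, all lower, where 3.92% of all exons did, and 0 passed by edgeR. Gsta3, a glutathione transferase, was at 1.75, 1.51, 2.25 and 2.23 CPM in controls 1 to 4 and 0.926, 0.526, 0.145 and 0.349 CPM in low dose libraries 1 to 4, or 1 to 15 counts per library, without overlap and with a log2 value of -1.93 (SE 0.50). G6pdx, the entry enzyme of the pentose phosphate pathway, did not overlap either (log2 -1.47 (SE 0.58)), while Gstm1 (log2 -1.32 (SE 0.49)) and Gstm2 (log2 -1.18 (SE 0.48)) did. The summed Nrf2 targets were at 35.6, 54.8, 116 and 99.5 CPM in controls 1 to 4 and 50.2, 29.9, 71.3 and 49.7 CPM in low dose libraries 1 to 4. On this scale of all counts, which lowers control 1, control 1 and control 2 lay among the low dose libraries. Low dose 2 was the lowest and control 3 the highest both here and in the epididymis sums. TMM-scaled sums were not compared. The part of epididymal RNA in these values was not tested.

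Genes of alcohol metabolism were lower in 6 of 6 tested, with a median of -0.61, and 0 passed. Beside them, 5669 of all 9024 exons were lower, with a median of -0.12. Aldh1a1, a retinaldehyde dehydrogenase, was at 17.9, 13.8, 13.0 and 26.3 CPM in controls 1 to 4 and 10.6, 3.68, 10.03 and 6.80 CPM in low dose libraries 1 to 4, and its groups did not overlap (log2 -1.21 (SE 0.44)). Adh1, the main ethanol-oxidizing enzyme of liver, had 68 counts in controls and 41 at low dose and a log2 value of -1.16 (SE 0.56). Cyp2e1 had 5 and 6 counts, too few to test. Sperm and spermatid genes were higher in 10 of 10, between 0.00 and 0.43 on the log2 scale, with 0 at an unadjusted p under 0.05. Smooth muscle and fibroblast genes were 4 higher and 4 lower, spermatocyte genes 1 and 2, and of hepatocyte genes Alb alone could be tested, with overlap. Of 4 Sertoli cell genes with counts, 0 could be tested.

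Introns gave most of the calls and most of the higher values at an unadjusted p under 0.05, with 787 higher and 53 lower of 7250. Scaled within the class, the split was 435 higher and 232 lower, and the median went from 0.16 to -0.01. The excess of higher introns therefore depends in part on whether introns are scaled with the other classes. All low dose libraries were above all controls in 498 introns (6.87%), beside 3.3% over the 7 classes. Without control 1 there were 762, and over the 7 classes the count went from 592 to 942. Fewer controls make such a separation easier.

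Abcg2, an efflux transporter, had the lowest p of all features. Its intron counts were at 5.25, 7.88, 16.6 and 11.7 CPM in controls 1 to 4 and 56.5, 37.2, 29.1 and 34.7 CPM in low dose libraries 1 to 4. The log2 fold change was 1.97 (SE 0.30) and the edgeR adjusted p 0.0279. Plcb1, a phospholipase C, was at 18.6, 17.1, 26.5 and 18.1 CPM in controls 1 to 4 and 59.7, 42.2, 37.5 and 42.9 CPM in low dose libraries 1 to 4, with a log2 value of 1.20 (SE 0.22) and an adjusted p of 0.0495. Kcnj16, a potassium channel, was at 0.875, 2.01, 3.598 and 1.93 CPM in controls 1 to 4 and 13.3, 9.72, 5.67 and 7.84 CPM in low dose libraries 1 to 4 and rose by 2.22 (SE 0.35) on the log2 scale.

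4932438A13Rik rose by 1.44 (SE 0.27) on the log2 scale, from 4.30 CPM ± 0.895 (SD, n = 4) to 11.7 CPM ± 2.81 (SD, n = 4). Pcmtd1 rose by 1.91 (SE 0.33) on the log2 scale, Pls3, an actin-bundling protein, by 1.999 (SE 0.34) and Ptgs2os, a transcript opposite to Ptgs2, by 2.98 (SE 0.49). These 3 were at most 8.33 CPM in every library, and antisense reads cannot be told from those of the other strand here. Tanc2, a scaffold protein, came next by p among introns with a mean of at least 10 CPM, at 7.22, 9.39, 13.5 and 8.90 CPM in controls 1 to 4 and 21.9, 20.9, 21.5 and 19.2 CPM in low dose libraries 1 to 4 (edgeR adjusted p = 0.0753).

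On the lower side, the introns of Eif4a2, which host small nucleolar RNAs, were at 19.0, 49.5, 78.3 and 41.1 CPM in controls 1 to 4 and 11.4, 11.04, 12.4 and 24.4 CPM in low dose libraries 1 to 4. Control 1 lay below low dose 4, and the log2 value was -1.66 (SE 0.38), or -1.92 without control 1. Dhx32, a helicase, had a log2 value of -1.62 (SE 0.40), and Gltscr2, a ribosome assembly factor, had a log2 value of -0.81 (SE 0.24) without overlap. Pcsk5, among the 3 most abundant intron entries, was at 23975 CPM in control 1 and at 2163 to 4679 CPM in the other 7 libraries. Its log2 value was -1.10 with control 1 and 0.57 without it.

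Structural RNAs were lower in 58 of 76 tested, with 21 lower and 1 higher at an unadjusted p under 0.05 and 0 calls. The median log2 value was -0.33, but 0.00 without control 1, where 12 were lower and 8 higher. For the 57 tRNA entries the median turned from -0.43 to 0.06. The tRNAs with the lowest p were lower with and without control 1. tRNA-Thr-ACY_, as the table spells it, was at 27.8, 33.9, 28.8 and 36.3 CPM in controls 1 to 4 and 12.2, 13.0, 22.7 and 10.8 CPM in low dose libraries 1 to 4. All low dose libraries were below all controls, with a log2 value of -1.11 (SE 0.28) and of -1.17 without control 1, and the edgeR adjusted p was 0.182. tRNA-Thr-ACY had a log2 value of -1.17 (SE 0.32), tRNA-Met -0.95 (SE 0.25) and tRNA-Met_ -1.11 (SE 0.30).

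For the most abundant tRNAs the sign turned once control 1 was set aside. tRNA-Gly-GGY, whose 5′ fragments are known to be abundant in sperm, had a log2 value of -1.21 with control 1 and 0.66 without it. tRNA-Val-GTG went on the log2 scale from -1.15 to 1.04, and tRNA-Glu-GAG_ from -1.52 to 0.19. For the copies of tRNA-Gly-GGY, 10 of 26 held counts within 1% of the highest, and 5 of 19 did for tRNA-Val-GTG. Whether such reads were counted once or once per copy cannot be told from the sources used here, and abundances of tRNAs are uncertain.

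Within the structural RNA of each library, low dose lay apart from controls 2 to 4 in 4 of the 8 most abundant tRNAs, and control 1 lay outside the range of controls 2 to 4 in each of them. tRNA-Asp-GAY made up 1.42, 8.15, 8.51 and 8.43% in controls 1 to 4 and 4.03, 3.67, 5.44 and 5.16% in low dose libraries 1 to 4. Controls 2 to 4 lay within 8.15% to 8.51%, all above low dose, while control 1 was the lowest of all. tRNA-Val-GTG made up 14.7, 6.74, 6.76 and 6.96% in controls 1 to 4 and 12.9, 7.79, 10.6 and 13.1% in low dose libraries 1 to 4, so low dose lay between controls 2 to 4 and control 1, and tRNA-Val-GTY showed the same order at 2.61% to 2.76%, 2.99% to 5.15% and 6.39%. tRNA-Lys-AAA made up 2.999, 4.44, 3.36 and 3.88% in controls 1 to 4 and 2.58, 2.32, 3.15 and 2.25% in low dose libraries 1 to 4, with control 1 just below low dose 3. For these 4 the exact p without control 1 was 0.0571, the smallest that 4 against 3 allow, or 0.171 adjusted over the 12 tRNAs compared. With all 8 libraries the adjusted exact p was 0.686 for each.

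**Figure D5:**
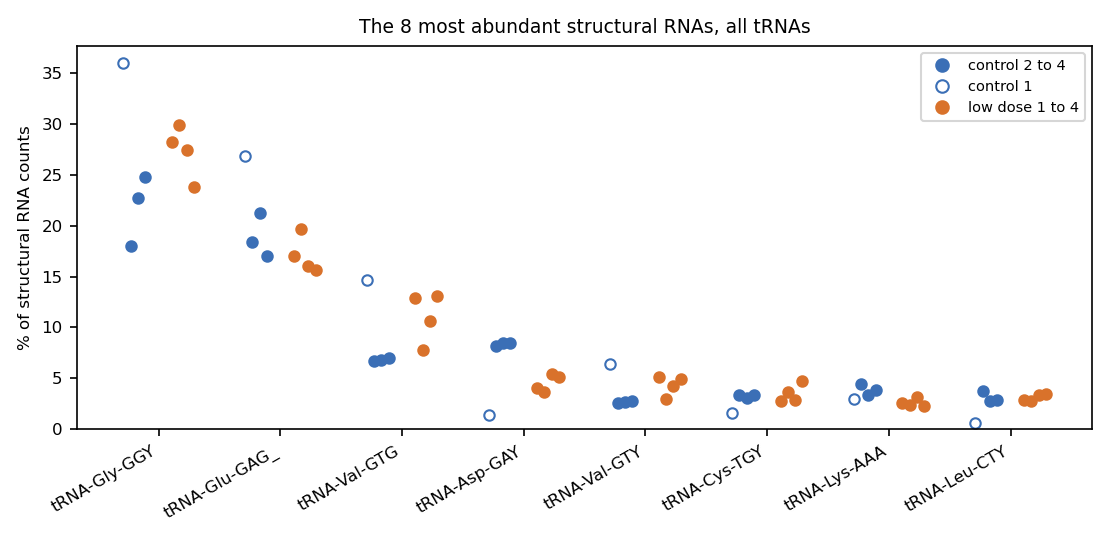
Percent of the structural RNA counts of each library (y axis, linear) for the 8 most abundant entries, all tRNAs, in control (blue, control 1 open) and low dose (orange) libraries. For tRNA-Val-GTG, tRNA-Val-GTY and tRNA-Asp-GAY, low dose lies between controls 2 to 4 and control 1.

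Of other structural RNAs, HY1, a Y RNA that binds the Ro protein, was at 497, 302, 515 and 542 CPM in controls 1 to 4 and 163, 101, 237 and 131 CPM in low dose libraries 1 to 4. All low dose libraries were below all controls, with a log2 value of -1.55 (SE 0.44) and of -1.52 without control 1, and an edgeR adjusted p of 0.253. U4 of the spliceosome did not overlap either, at -0.62 (SE 0.27), with a log2 value of -0.71 without control 1. Of the 11 U RNAs tested, 10 were lower, with a median of -0.23 (-0.06 without control 1). They hold the spliceosomal U1, U2, U4, U5 and U6, all lower, or all but U1 without control 1, and also small nucleolar RNAs, among them U13, the 1 higher member, and U17, which had the lowest log2 value. The U17 value rests largely on control 1, with 1523 counts against 87 to 271 in controls 2 to 4 and 134 to 399 at low dose. Y, 7SL and BC1 RNAs were 1 higher and 3 lower, and the 2 ribosomal RNA entries had overlapping groups. On the higher side tRNA-Leu-CTG had a log2 value of 0.32 (SE 0.21), the brain and germ cell RNA BC1_Mm 0.28 (SE 0.22) and 5S 1.39 (SE 0.52). The 5S value rests on low dose 2, at 55.6 CPM against 1.35 to 11.8 CPM in the other 7 libraries.

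Of 54 miRNA hairpins tested, 3 were higher and 2 lower at an unadjusted p under 0.05. The mir-451a hairpin was at 35.01, 53.9, 17.99 and 107 CPM in controls 1 to 4 and 567, 369.8, 540.3 and 282 CPM in low dose libraries 1 to 4, again with every low dose library above every control, by a log2 value of 3.02 (SE 0.61) (edgeR adjusted p = 0.0784; DESeq2 0.0349). mir-142a, the precursor of a miRNA of blood cells, was at 12.7, 40.8, 20.7 and 34.0 CPM in controls 1 to 4 and 74.1, 41.1, 64.2 and 51.9 CPM in low dose libraries 1 to 4, where low dose 2 lay just above control 2. mir-881 of the X-linked cluster had a log2 value of 0.60 (SE 0.37), mir-101b -0.22 (SE 0.36), mir-7242 -0.34 (SE 0.23) and mir-7214 -0.14 (SE 0.27), all with overlap.

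piRNA clusters had the narrowest range between quartiles of the 8 classes. Of 210 entries tested, 0 passed by edgeR or DESeq2, 0 had an unadjusted p under 0.05 and 0 had groups that did not overlap. The median log2 value was 0.06, with quartiles of 0.02 and 0.09, and -0.06 without control 1. The lowest p was 0.0709. Entries are not independent, since 58 of them had counts identical to another entry in all 12 WT libraries. Of the abundant ones, 9-qC-31469.1 was at 12695, 21021, 15359 and 22538 CPM in controls 1 to 4 and 17634, 22499, 17712 and 17718 CPM in low dose libraries 1 to 4. All low dose values lay inside the control range. Among entries of at least 10 CPM, that with the lowest p on the higher side lay on chromosome 13, with a log2 value of 0.25 (SE 0.26), and that on the lower side on chromosome 17, with -0.18 (SE 0.20).

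Few repeats differed. In sense, 11 of 658 were higher and 9 lower at an unadjusted p under 0.05, and in antisense 7 and 6 of 665, with 0 calls in either by edgeR or DESeq2. The medians were 0.01 and 0.03. L1MC4, an old LINE-1 family, had the lowest p of higher sense entries with a mean of at least 10 CPM. It was at 40.05, 57.7, 47.7 and 71.8 CPM in controls 1 to 4 and 129, 124, 55.2 and 60.3 CPM in low dose libraries 1 to 4. Low dose 3 lay below controls 2 and 4 and low dose 4 below control 4, and the log2 value was 0.76 (SE 0.29). In antisense it was at 23.2, 19.96, 21.6 and 21.8 CPM in controls 1 to 4 and 27.5, 29.7, 24.8 and 30.3 CPM in low dose libraries 1 to 4, without overlap, and had a log2 value of 0.38 (SE 0.20).

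Among endogenous retroviruses, antisense reads of MMERGLN-int were at 100.005, 85.7, 73.8 and 61.7 CPM in controls 1 to 4 and 42.9, 45.2, 44.8 and 44.8 CPM in low dose libraries 1 to 4. All low dose libraries were below all controls, with a log2 value of -0.85 (SE 0.30) and an edgeR adjusted p of 0.404. Antisense IAP-d-int, of the active intracisternal A particles, had a log2 value of 1.01 (SE 0.32), and control 3 lay above low dose 3 and 4. In sense, MMERVK9E_I-int (log2 0.42 (SE 0.24)) and MLTR31FA_MM (log2 0.43 (SE 0.22)) had low dose above all controls, while RLTR14-int had a log2 value of -0.54 (SE 0.25), or -0.23 without control 1. Control 1 held 115 CPM of it against 45.0 to 65.6 CPM in the other 7 libraries. The most abundant sense entry, L1Md_F2 of the young LINE-1 group, had a low dose mean of 10052 CPM ± 1919.9 (SD, n = 4) with the controls at 10171 CPM ± 2178 (SD, n = 4).

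By family, LINE-1 in sense had 55 of 79 higher with a median of 0.09, and in antisense 43 of 84 with 0.00. Without control 1 these medians were 0.05 and 0.08. IAP elements had 11 of 21 and 12 of 19 higher, RLTR elements 62 of 148 and 77 of 140, and MERVL and MT elements 30 of 55 and 32 of 55. Their medians lay between -0.03 and 0.17. B1 repeats had 5 of 10 and 4 of 10 higher. The 3 B2 repeats were all lower in both orientations, by medians of -0.06 and -0.15, and the sign turned without control 1, at 0.08 and 0.09.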

How the data were processed

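The values used were raw counts per annotated feature that the authors deposited in 1 table of 12 WT libraries, whole numbers with unequal totals per the file headers and values. The labels' protocols name Trizol and the Qiaseq small RNA kit. The aligner, counting, use of molecular identifiers and of strand, and the build are not given in the sources used here. Groups and columns were taken from the labels, and 0 columns stayed unmatched. Counts were summed per feature name within each of 8 classes.

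miRNAs and the other 7 classes were fitted as 2 families over all 12 WT libraries with edgeR 4.0.16 in R 4.3.3 (filterByExpr, TMM within the family, quasi-likelihood F test, two-sided, Benjamini-Hochberg, threshold 0.05). Class shares used exact permutation tests in scipy 1.17.1. DESeq2 1.42.0 was an alternative. A 0 was taken as a gap if a miRNA's level in the remaining libraries predicted 50 or more reads, it was above 0 in 3 or more libraries and its lowest count above 0 was 10 or more. Intervals and floors (3 counts) cover counting error only. The code was tested on simulated counts.

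Members and lists were chosen with earlier results of these data known. Named by rule were features past the threshold (up to 10 per class), the 10 higher and 10 lower miRNAs (3 in other classes) with the lowest p and a mean of at least 10 CPM, the 10 (3) most abundant and 2 to 4 list members with the lowest p. Alternatives were DESeq2, other library sizes, no filter, only the 8 libraries, a replicate block, each library left out, gaps as missing, scaling within classes or without structural RNA and a threshold of 0.1. Robust dispersions, shares without both structural RNA and control 1, and the mitochondrial list were added after seeing the data.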

Additional observations from a re-analysis of the deposited data

Results flagged for a closer look

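Dixon's test marked 21 single libraries that lay far from the 3 others of their group, over 178 groups of 4 looked at. Chance marks about 1 in 20 groups. Of the marked values, 8 came from control 1.

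In control 1, structural RNA took 75.8% against 22.5 to 28.7% in the other controls, sense TEs 1.79% against 4.96 to 5.14% and antisense TEs 2.12% against 6.28 to 6.65%. Its miR-10b-5p was at 23719.8 CPM against 3472 to 6916 CPM, miR-205-5p at 7408 CPM against 607 to 959 CPM, mir-5121 at 314 CPM against 19.7 to 37.7 CPM, miR-187-3p at 34.7 CPM against 15.0 to 17.8 CPM and the exon of Snord123 at 25.8 CPM against 16.3 to 17.8 CPM. 

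In control 3, antisense IAP-d-int was at 14.4 CPM against 5.69 to 6.23 CPM, the intron of Plcb1 at 26.5 CPM against 17.1 to 18.6 CPM, sense ERVB5_2-LTR_MM at 11.7 CPM against 19.3 to 20.2 CPM and sense MLTR31FA_MM at 8.996 CPM against 10.3 to 10.4 CPM. In control 4, the exon of Hbb-bs was at 5.04 CPM against 0.671 to 1.35 CPM, the intron of Pcmtd1 at 2.67 CPM against 1.34 to 1.53 CPM and antisense RLTR27 at 21.4 CPM against 10.7 to 12.5 CPM.

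At low dose, library 4 held the most miR-486a-5p, 1797 CPM against 908 to 963 CPM, and miR-486b-5p, 1789.6 CPM against 885 to 1007 CPM, and its intron of Eif4a2 was at 24.4 CPM against 11.04 to 12.4 CPM. Low dose 2 held 5S at 55.6 CPM against 8.18 to 10.1 CPM and antisense LTR28 at 265 CPM against 125 to 139.6 CPM. Low dose 3 held the intron of Dhx32 at 9.88 CPM against 3.86 to 4.73 CPM.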

How the results depend on the processing

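For miRNAs, the 0 calls became 24 with DESeq2, 9 with no filter and 2 with only the 8 libraries, and stayed 0 in the other settings run, each library left out included (0 to 0). The 24 include miR-200c-3p, whose values are gaps. For the other classes, the 11 calls became 44 with DESeq2, 155 with no filter, 30 with only the 8 libraries and 21 at a threshold of 0.1, and 0 with scaling within each class or with all counts as library size. They ranged from 0 to 8 with 1 library left out. Robust dispersions gave 10, of which 7 were among the 11. Low counts limit what single libraries show: 3 counts correspond to 13.2 CPM of miRNAs in control 3.

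For the other classes the replicate block gave 70 calls, all 11 among them, where the same libraries without it gave 30. For miRNAs it gave 0. Deviations of libraries that share a number correlated at -0.271 to -0.0761 for miRNAs and -0.113 to 0.211 for other features. Only number 2 of other features correlated best with its own number. The labels do not say whether the numbers pair the libraries, and so few correlations cannot settle it.

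Shares that turned direction, as low dose minus control in percentage points without structural RNA in the total, were -1.22 for piRNA clusters, -1.14 for exons, -0.920 for introns, -0.524 for sense and -0.573 for antisense TEs. With control 1 also left out they were -2.69, -0.862, -0.368 and -0.530 in the same order, with introns back at 0.231. With single libraries left out they ranged from -3.79 to 5.52, -1.02 to 0.842, -0.168 to 1.10, -0.522 to 0.594 and -0.709 to 0.7998, and structural RNA from -13.8 to 3.95. Among named features, log2 values that turned with 1 library left out ranged from -1.44 to 0.57 (intron Pcsk5), -0.46 to 0.0798 (miRNA hairpin mir-101b), -1.85 to 0.19 (structural RNA tRNA-Glu-GAG_), -1.57 to 0.66 (structural RNA tRNA-Gly-GGY) and -1.51 to 1.04 (structural RNA tRNA-Val-GTG). tRNA-Val-GTG was also at 0.15 with the replicate block, and piRNA cluster 13-qA5-464.1 at 0.014 with all counts as library size. The cause was not tested.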
